A study of Mus musculus with 8 samples.

Results

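The TGF-b response of CD4 T cells without Smad3 was read from 2 of the 8 arrays of the series, those of Smad3 -/- cells cultured with TGF-b and without it, and is described here across all genes. The arrays were chosen by their genotype label (Smad3 -/-, called Smad3KO), and the pairs of wild-type cells (WT) and of cells with Smad2 deleted on both alleles (Smad2del/del, a conditional knockout made in T cells, called Smad2KO) serve as reference. The labels name no cell type to which the Smad3 deletion was limited, whereas that of Smad2 was made in T cells. All were labelled C57BL/6J, and sorted naive CD4 T cells (CD25 negative, CD44 low, CD62L high, purity over 98%) made up each culture. Every culture, those without TGF-b included, was stimulated for 24 h with plate-bound antibody to CD3e and soluble antibody to CD28 (1 ug/ml each), IL-2 (10 ng/ml) and blocking antibodies to IFN-g and IL-4 (10 ug/ml each). TGF-b was given at 2 ng/ml or left out. Each group had 1 array, so a difference between the 2 Smad3KO arrays has no replicate check and carries no p-value. Neither the age of the animals nor how many stood behind a culture is in the labels, and a further genotype, Smad2KO_Smad3het, was not used as a reference.

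TGF-b is a cytokine that binds a pair of receptor kinases, which phosphorylate Smad2 and Smad3. These join Smad4, move to the nucleus and act on target genes, while Smad7, Skil and Pmepa1 are induced targets that damp the signal. In activated CD4 T cells TGF-b is known for inducing Foxp3, which defines regulatory T cells (Treg), for a part in Th17 cells, and for restraining IL-2 and the genes of Th1 and cytotoxic cells.

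Values are deposited array signals scaled to a common 2% trimmed mean over the 6 arrays, with factors from 0.847 to 1.248. Signals under 32.3, the median of all scaled signals, were set to that floor before log2 ratios were taken, and a ratio whose dimmer signal was under it is written as "at least". A gene is called higher or lower when its ratio was at least 2-fold and its brighter signal at least 64.6, which is 2 times the floor. All 8 CD4 T cell markers measured were that bright on all 6 arrays, and none of the 7 B cell, 5 NK cell, 6 dendritic, 3 erythroid or 1 gamma-delta T cell markers was bright on any. Of 11 myeloid markers, 1 was bright on the Smad3KO array without TGF-b and 0 on that with it, with summed signals of 205 and 166. The CD8 T cell markers Cd8a and Cd8b1 were under 64.6 on both Smad3KO arrays, while 2 were bright in WT without TGF-b and 1 on each of the other reference arrays. Of 5 memory T cell markers 3 were bright on both Smad3KO arrays, with summed signals of 2626 without TGF-b and 4460 with it. The brightest of 3 Smad3 probe sets gave 609 and 725 in Smad3KO, 148 and 544 in WT and 178 and 434 in Smad2KO, the first value of each pair without TGF-b and the second with it, so it was not lower in Smad3KO. The other Smad3 probe sets read 42.8 and 48.4, and 284 and 197, in Smad3KO. Control probe sets for 18S ribosomal RNA moved with TGF-b within the pairs. Without and with it they read 870.4 to 2525 and 710.4 to 989 in Smad3KO, 2594 to 3990.0 and 70.1 to 182 in WT, and 34.7 to 78.9 and 122 to 225 in Smad2KO, and their part in the results was not tested. Where the Smad3 probes lie relative to the deletion is not in the labels, so they do not check the label, and every statement on Smad3KO below is about the arrays labelled so.

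In Smad3KO, TGF-b went with higher signals of many of the best-known genes of the response. Among them were Maf, Ccr8, Nt5e, Ccr6, Rora, Pmepa1 and Vim, and lower signals were seen for Gzmb, Eomes, Il2 and Stat4. There were 170 genes at least 2-fold higher (1.9% of 8937 genes bright on either array) and 75 at least 2-fold lower (0.839%). In WT the shares were 4.53% and 2.89%, and in Smad2KO 2.94% and 1.76%. The split between higher and lower genes moved to 227 and 50 when signals were taken as deposited, a change that shifted the median of all genes by 0.12 on the log2 scale. Of the 170 genes, 55 were at least 3-fold higher, 30 at least 4-fold and 6 at least 8-fold, and 12 of the 75 were at least 3-fold lower and 2 at least 4-fold. The dimmer signal was under the floor for 34 of the 170 and 20 of the 75. In RNA of whole cultures, fewer cells of a type and less RNA per cell cannot be told apart.

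**Figure D1:**
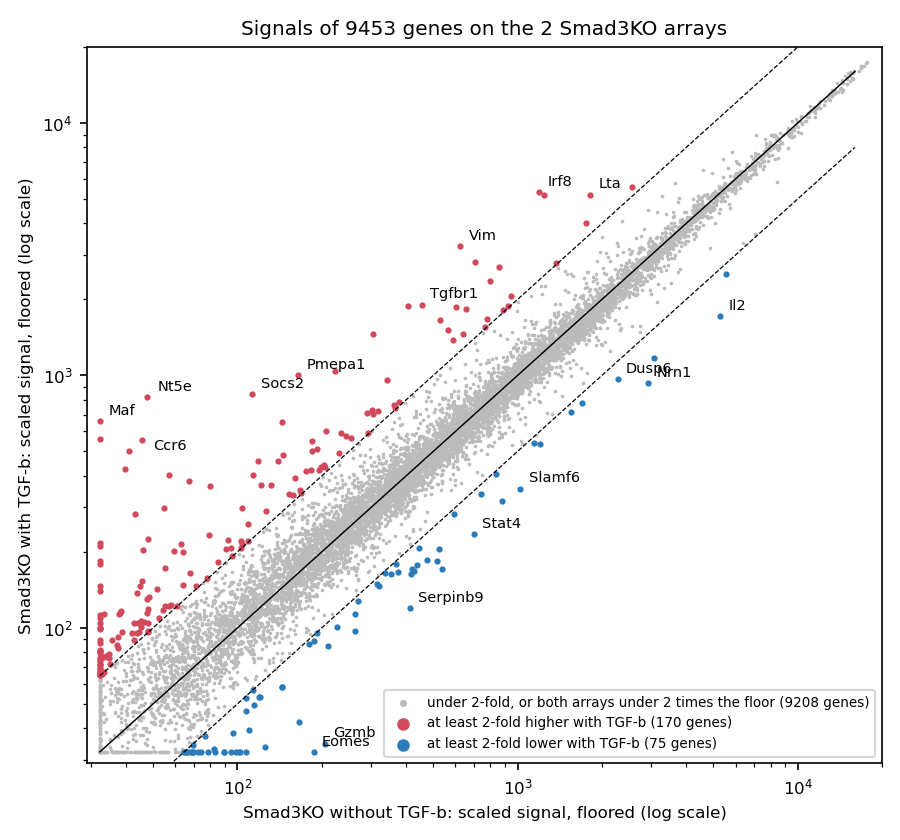
Scaled signal of each of 9453 genes on the Smad3KO array without TGF-b (horizontal) and with it (vertical), both axes logarithmic, with signals under the floor of 32.3 set to it; the solid line marks equal signals and the dashed lines 2-fold. The 170 higher genes reach up to Irf8 and Lta with TGF-b, and the 75 lower genes down to Gzmb and Eomes near the floor.

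Most genes lay close to the line of equal signals. Over genes bright on both Smad3KO arrays, 95% of the log2 ratios were between -0.51 and 0.68, and their robust SD was 0.197. That spread depended on brightness, with a robust SD of 0.317 for mean signals from 64.6 to 100 and 0.0828 above 3000. The robust SD over all such genes was 0.329 in WT and 0.261 in Smad2KO. A pair with a wider spread can hold more genes at 2-fold for that reason alone, so counts of called genes in the lists below are given for Smad3KO alone. Just inside the threshold were Acvr2a, Ypel2 and Pdzk1ip1 at 2.00-fold, and just outside it Zfp362 (1.997-fold), Klhl2 (1.996-fold) and Orai2 (1.99-fold). On the lower side Rhbdf2, Isg20 and Gm20559 were inside at 2.00, 2.00 and 2.01-fold, and Crtam, Filip1l and Trim16 outside at 1.996, 1.99 and 1.99-fold.

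The largest rises held transcription factors and receptors of helper and regulatory T cells. Maf, a leucine zipper factor that drives cytokine genes in helper cells, read 13.9 and 660.1 in Smad3KO, 2.26 and 2618 in WT and 10.4 and 1977 in Smad2KO. It was at least 20.5-fold higher in Smad3KO, where its signal with TGF-b was lower than in WT or Smad2KO. Ccr8, a chemokine receptor, read 31.9 and 559 in Smad3KO, 25.6 and 2366 in WT and 21.6 and 1509.7 in Smad2KO, at least 17.3-fold higher in Smad3KO. Its ligand gene Ccl1 read 48.0 and 226 in Smad3KO, 72.2 and 189 in WT and 63.7 and 139 in Smad2KO, and the ratio in Smad3KO (2.23 on the log2 scale) was above those in WT (1.39) and Smad2KO (1.13). Nt5e, which encodes CD73, an enzyme that makes extracellular adenosine, read 47.4 and 822 in Smad3KO, 102 and 2138 in WT and 32.5 and 808 in Smad2KO. It was 17.3-fold higher in Smad3KO, and a further Nt5e probe set was also at least 2-fold higher in all 3 genotypes. The adenosine list held 5 tested genes, and Nt5e was the 1 called in Smad3KO, where 1.9% of all bright genes were called higher. Adam19, a membrane metalloprotease, read 40.9 and 501 in Smad3KO, 23.03 and 1411 in WT and 67.7 and 969.9 in Smad2KO, and Aqp3, a channel for water and glycerol, 39.7 and 426 in Smad3KO, 64.3 and 1458 in WT and 38.3 and 1118 in Smad2KO. For both, the Smad3KO signal with TGF-b was the lowest of the 3. Cd72, an inhibitory receptor best known from B cells, read 57.1 and 404 in Smad3KO, 62.8 and 448 in WT and 61.7 and 351 in Smad2KO, with ratios of 2.82, 2.83 and 2.51. Vim, the intermediate filament gene of lymphocytes, read 624 and 3244 in Smad3KO, 609.5 and 4046 in WT and 495 and 2485 in Smad2KO, and its 3 probe sets were at least 2-fold higher in every genotype.

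The bases before the start site of Ccr8 and Nt5e are shown because these are the leading receptor and enzyme of the remaining response. They come from RefSeq (GRCm38.p6), 250 bases up to the start site, written 5′ to 3′ on the gene's strand, with CAGAC or its reverse complement GTCTG in capitals. CAGAC is a short sequence that Smad3 is known to bind, and a match is only a match of letters. The Ccr8 window (chr9:120091883-120092132, plus strand) and the Nt5e window (chr9:88327359-88327608, plus strand) each held 2 matches.
Ccr8: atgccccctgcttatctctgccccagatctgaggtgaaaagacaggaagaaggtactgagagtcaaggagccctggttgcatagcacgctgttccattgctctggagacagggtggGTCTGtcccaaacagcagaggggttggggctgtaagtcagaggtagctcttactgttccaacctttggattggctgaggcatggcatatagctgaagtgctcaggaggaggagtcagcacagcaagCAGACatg
Nt5e: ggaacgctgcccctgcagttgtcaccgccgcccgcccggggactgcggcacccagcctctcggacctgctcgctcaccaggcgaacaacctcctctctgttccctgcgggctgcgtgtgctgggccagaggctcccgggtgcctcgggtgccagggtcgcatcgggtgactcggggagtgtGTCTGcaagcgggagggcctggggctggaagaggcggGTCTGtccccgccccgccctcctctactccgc
Across sets of genes, CAGAC in either orientation stood in 40.0% of 9891 such windows of all genes tested. It stood in 44.0% of 168 windows of genes higher in Smad3KO and 34.6% of 78 windows of genes lower there. The AP-1 motif TGANTCA, which reads as the same form on both strands, stood in 3.93% of all windows, 6.55% of those of higher genes and 14.1% of those of lower genes. The last share is 11 windows of 78, and some genes have several windows.

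Of the 25 largest rises, 22 were also at least 2-fold higher in both WT and Smad2KO. The Smad3KO ratio was smaller than both others for 13 of the 25, larger than both for 8 and between them for 4. Among the 8 were Ccr6, Pdgfb and, on the probe set used only, Rora, described by their values below or in the plot of the largest changes. The 3 that were not 2-fold higher in both others were Lmna, Fcrl1 and 2900026A02Rik. Lmna, the lamin A/C gene, read 22.0 and 184 in Smad3KO on the probe set used, and its 4 other probe sets were not bright there. Marveld1 read 17.1 and 210.5, and another bright Marveld1 probe set gave a log2 ratio of 0.07, so the probe sets of this gene disagree. More widely, 68 of the 170 higher genes had a second bright probe set, which pointed the same way for 64 and was 2-fold higher for 49. For the 75 lower genes these numbers were 19, 19 and 14.

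**Figure D2:**
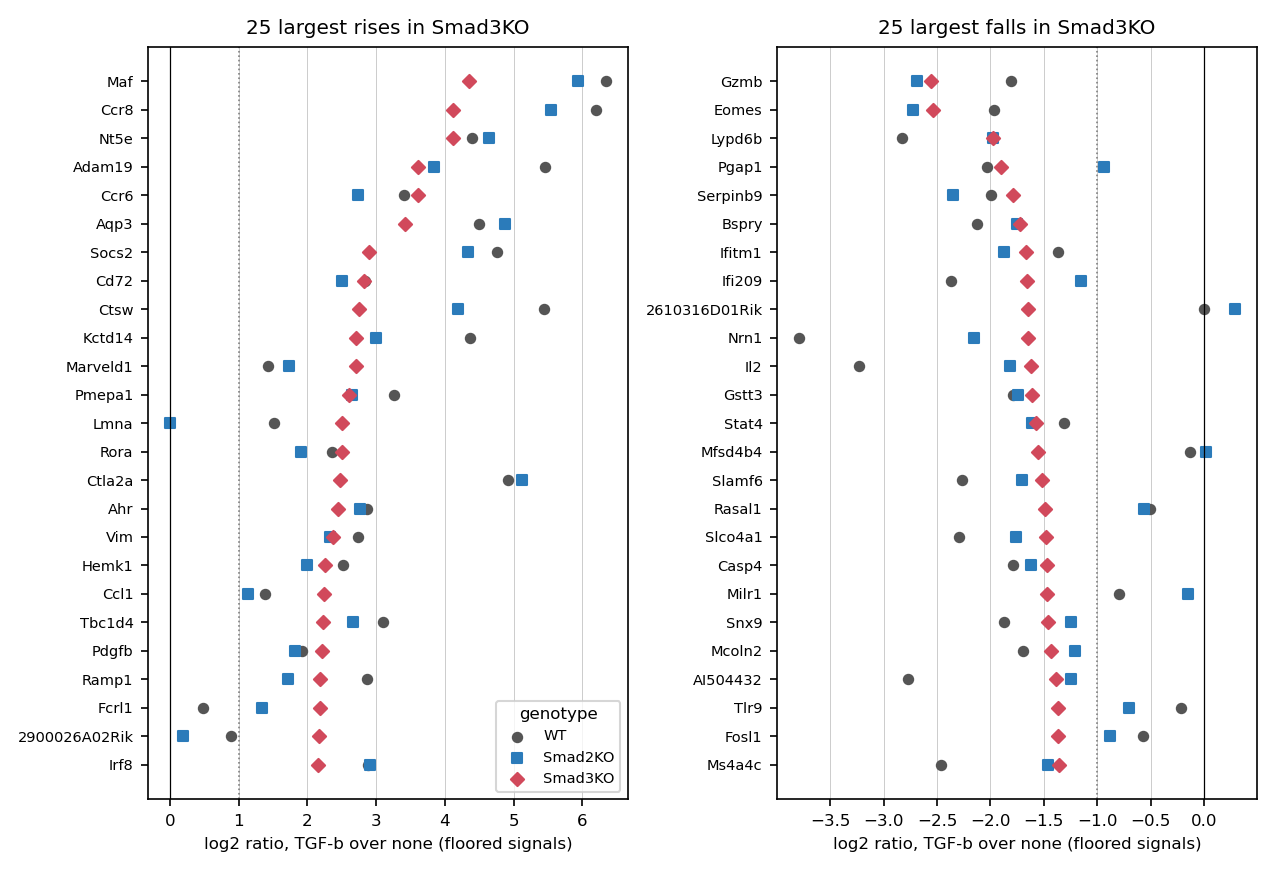
Log2 ratios of TGF-b over none (horizontal) for the 25 largest rises (left) and 25 largest falls (right) in Smad3KO, 1 gene a line, with WT as grey circles, Smad2KO as blue squares and Smad3KO as red diamonds; the dotted line marks 2-fold. Maf, Ccr8 and Socs2 have red points left of the others, and Ccr6 and Rora have them at or right of the others.

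The largest falls in Smad3KO were led by genes of cytotoxic cells. The CD8 T cell marker Cd8a, dim on most arrays, read 44.8 and 13.2 in Smad3KO, 93.3 and 37.4 in WT and 50.6 and 46.0 in Smad2KO, and Cd8b1 read 38.1 and 54.6, 66.3 and 70.0, and 92.2 and 85.5. The part of CD8 T cells in these falls was not tested. Gzmb, the granule protease granzyme B, read 205 and 34.8 in Smad3KO, 113 and 1.20 in WT and 208 and 31.5 in Smad2KO and was 5.89-fold lower in Smad3KO. Eomes, a transcription factor of cytotoxic cells, read 187 and 17.7 in Smad3KO, 126 and 5.79 in WT and 213 and 1.49 in Smad2KO, at least 5.8-fold lower in Smad3KO, and both of its probe sets were at least 2-fold lower in every genotype. Serpinb9, an inhibitor of granzyme B, read 413 and 119.8 in Smad3KO, 301 and 75.4 in WT and 425 and 83.4 in Smad2KO. In all 3 pairs every signal with TGF-b was under every signal without it for Gzmb, Eomes and Serpinb9. Il2 encodes the cytokine that TGF-b is known to restrain. It read 5289 and 1716 in Smad3KO, 5029 and 535 in WT and 5496 and 1559 in Smad2KO, and its signal with TGF-b was highest in Smad3KO and lowest in WT, with ratios of -1.62, -3.23 and -1.82. Nrn1, the neuritin gene, read 2917 and 931 in Smad3KO, 3145 and 227 in WT and 2664 and 598 in Smad2KO and showed the same order. Stat4, which carries the IL-12 signal, read 698 and 235 in Smad3KO, 432 and 174 in WT and 754 and 247 in Smad2KO, with ratios of -1.57 in Smad3KO, -1.31 in WT and -1.61 in Smad2KO. Slamf6, a receptor of activated lymphocytes, read 1022 and 356 in Smad3KO, 1396 and 290.3 in WT and 1402 and 430.3 in Smad2KO. Fosl1, a subunit of AP-1, read 476 and 185 in Smad3KO, 356 and 239.7 in WT and 404 and 219 in Smad2KO and had a larger fall in Smad3KO (-1.36) than in WT (-0.57) or Smad2KO (-0.88). Of the 25 largest falls 18 were at least 2-fold in both others, and the Smad3KO ratio was smaller in size than both for 10, larger than both for 6 and between them for 9.

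Genes of the pathway itself came next, read from lists of known members. Of 17 tested feedback genes and direct targets, 5 were at least 2-fold higher in Smad3KO and 0 lower. Over all bright genes 1.9% were called higher and 0.839% lower, and the counts of each list below stand beside these same shares. The median log2 ratio of the list was 0.57 in Smad3KO, 0.95 in WT and 0.76 in Smad2KO, with all genes tested at -0.00, -0.01 and -0.03. Pmepa1, which holds Smads away from the receptor, read 165 and 1004 in Smad3KO, 169 and 1619 in WT and 187 and 1169 in Smad2KO. Klf10, a zinc finger repressor induced early by TGF-b, read 118 and 459 in Smad3KO, 161 and 686 in WT and 138 and 462 in Smad2KO, with ratios of 1.96, 2.09 and 1.75. Skil, a corepressor that binds Smads, read 656 and 1825 in Smad3KO, 558 and 2145 in WT and 445 and 1907 in Smad2KO, a ratio of 1.48 in Smad3KO. Spsb1, an adaptor of receptor turnover, had a ratio of 1.12 in Smad3KO and of 2.56 and 2.06 in WT and Smad2KO, and Kctd14 of 2.71, 4.37 and 3.00. The inhibitory Smad gene Smad7 read 179 and 307 in Smad3KO, 179 and 392 in WT and 151 and 434 in Smad2KO. Its ratio in Smad3KO was 0.78, under 2-fold, against 1.13 and 1.52. A further, dimmer Smad7 probe set read 57.2 and 121 in Smad3KO, a ratio of 1.08. The Smad7 probe sets thus fell on either side of 2-fold in Smad3KO, while both were at least 2-fold higher in WT and Smad2KO. Ski, the partner of Skil, stood at 0.96, against 1.45 and 1.42. Ldlrad4, another inhibitor of Smad phosphorylation, read 1.46 and 43.1 in Smad3KO, 26.3 and 206 in WT and 1.45 and 128 in Smad2KO, so its signal with TGF-b in Smad3KO was little over the floor. The dimmer Ldlrad4 signal was under the floor in every genotype, and its ratio was at least 0.42 in Smad3KO.

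Among 9 tested receptors of TGF-b, activins and BMPs, 2 were higher in Smad3KO and 0 lower. Tgfbr1, the type I TGF-b receptor, read 454 and 1909.5 in Smad3KO, 482 and 3885 in WT and 426 and 4115 in Smad2KO. Its 3 probe sets were all at least 2-fold higher in every genotype, with ratios from 1.80 to 2.53 in Smad3KO. Acvr2a, a type II activin receptor, stood at the threshold in Smad3KO (1.00) and fell short of it with quantile normalization or median centring, which left 1 receptor called. Tgfbr2, the type II TGF-b receptor, had a ratio of 0.32 in Smad3KO and of 1.03 and 0.70 in WT and Smad2KO, Acvr1b of 0.31, 1.17 and 1.28, and Bmpr2 of 0.85, 2.51 and 1.75. None of 11 tested Smads and cofactors was called in Smad3KO. Runx1, a partner of Smads in T cells, came nearest at 0.96, with 1.45 in WT and 1.23 in Smad2KO.

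Th17 genes stood out among the lists by the size of their ratios in Smad3KO. Of 8 tested, 5 were at least 2-fold higher and 0 lower, and the median ratio was 1.99 in Smad3KO, 1.72 in WT and 1.66 in Smad2KO. Those called were Maf, Ccr6, Rora, Ahr and Il6ra. Ccr6, the receptor for the chemokine CCL20 on Th17 cells, read 45.8 and 557 in Smad3KO, 55.1 and 585 in WT and 69.1 and 459 in Smad2KO, so the Smad3KO ratio (3.61) was not smaller than in WT (3.41) or Smad2KO (2.73). Rora, a nuclear receptor of Th17 cells, read 67.4 and 382 in Smad3KO, 108 and 553 in WT and 73.2 and 275 in Smad2KO. Of its 9 probe sets, 5 were at least 2-fold higher in each genotype. The Rora ratio in Smad3KO was above both others only on the probe set used. On the rest of these 5 it lay under WT and above Smad2KO. Their ratios ran from 1.82 to 2.24 in Smad3KO, 1.84 to 2.91 in WT and 1.099 to 1.65 in Smad2KO. Ahr, a transcription factor activated by ligands, read 54.8 and 299 in Smad3KO, 67.5 and 490.4 in WT and 64.6 and 437 in Smad2KO. Il6ra, a receptor chain for IL-6, read 104 and 299 in Smad3KO, 132 and 281 in WT and 67.8 and 179 in Smad2KO. Il17a and Il21 were too dim on all 6 arrays to be tested, and Maf also stands in the Th2 list.

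Treg genes had a smaller median ratio in Smad3KO than in the reference pairs. Of 14 tested, 5 were higher (Foxp3, Ikzf4, Nt5e, Capg and Socs2) and 0 lower. The median was 0.52 in Smad3KO (0.45 with quantile normalization), against 0.88 in WT and 0.80 in Smad2KO. Foxp3 read 20.5 and 99.5 in Smad3KO, 2.75 and 399 in WT and 24.5 and 286 in Smad2KO. It was at least 3.08-fold higher in Smad3KO, and its signal there with TGF-b was the lowest of the 3 genotypes. Ikzf4, a zinc finger factor of Treg cells, read 121 and 367 in Smad3KO, 109.6 and 607 in WT and 153 and 433 in Smad2KO, and Capg, an actin-capping protein, 702 and 2815 in Smad3KO, 1051 and 6278 in WT and 1039 and 6449 in Smad2KO. The IL-2 receptor chain Il2ra had ratios of 0.85, 1.11 and 0.88 in Smad3KO, WT and Smad2KO. Gpr83, a receptor of Treg cells, read 159 and 221 in Smad3KO, 100.2 and 338 in WT and 173 and 522 in Smad2KO, a ratio of 0.47 in Smad3KO. Ctla4, an inhibitory receptor, read 1619 and 1363 in Smad3KO, 1357 and 1821 in WT and 1361 and 2238 in Smad2KO, with ratios of -0.25, 0.42 and 0.72, all under 2-fold.

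Cytotoxic effector genes went both ways in Smad3KO. Of 8 tested, 4 were lower (Gzmb, Eomes, Serpinb9 and Serpinb6b) and 2 higher (Nkg7 and Ctsw), with medians of -0.76 in Smad3KO, -0.78 in WT and -1.10 in Smad2KO. Ctsw, the lymphocyte protease cathepsin W, read 15.5 and 218 in Smad3KO, 74.3 and 3244 in WT and 93.6 and 1701 in Smad2KO, and Nkg7, a granule membrane protein, 79.3 and 234 in Smad3KO, 87.7 and 299.8 in WT and 92.5 and 218 in Smad2KO. Ctsw was thus at a far lower level with TGF-b in Smad3KO than in the other pairs, while Nkg7 was not. In the Th1 list 2 of 16 tested genes were higher (Lta and Xcl1) and 2 lower (Stat4 and Eomes), beside 1.9% and 0.839% of all bright genes. Ifng, the Th1 cytokine, read 269 and 179 in Smad3KO, 64.8 and 34.9 in WT and 45.1 and 33.7 in Smad2KO, so both Smad3KO signals were above all 4 of the others. Tbx21, the transcription factor T-bet, read 113 and 137 in Smad3KO, 55.3 and 32.6 in WT and 29.6 and 9.73 in Smad2KO, and again both Smad3KO signals were the highest. Their ratios in Smad3KO were -0.59 and 0.27, both under 2-fold. Ccl3, a chemokine of activated cells, read 1191 and 789 in Smad3KO, 1209.7 and 305 in WT and 1453 and 814 in Smad2KO, a ratio of -0.59 in Smad3KO and -1.99 in WT.

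Interferon-stimulated genes were on the lower side. Of 19 tested, 0 were higher and 7 lower in Smad3KO (Isg20, Ifih1, Ifi209, Mndal, Ifitm1, Ifitm2 and Ifitm3). Of all bright genes 1.9% were higher and 0.839% lower. The median was -0.35 in Smad3KO, -0.92 in WT and -0.13 in Smad2KO. Ifi209, a nuclear protein of the interferon-inducible p200 family, read 538 and 170.3 in Smad3KO, 602 and 116 in WT and 419 and 189 in Smad2KO. Ifitm2, a membrane protein that limits virus entry, read 1554 and 715 in Smad3KO, 2109 and 356 in WT and 2519.5 and 682 in Smad2KO, and Ifih1, a sensor of viral RNA, 375 and 167 in Smad3KO, 411 and 82.8 in WT and 582 and 190.1 in Smad2KO. For Ifitm1 the dimmer signal was under the floor in all 3 pairs. IFN-g was blocked by antibody in every culture.

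Cytokine receptors and their inhibitors kept several changes. Among 14 IL-2 and cytokine receptor genes, Il2rb, Il6ra and Il7r were higher and Il2 lower. Il2rb, the signalling chain shared by IL-2 and IL-15, read 564 and 1518 in Smad3KO, 632 and 1809.5 in WT and 747 and 1862 in Smad2KO, with ratios of 1.43, 1.52 and 1.32. Of 8 Cish and Socs inhibitors of cytokine signalling, 3 were higher in Smad3KO. Cish read 862 and 2700.4 in Smad3KO, 942 and 3294 in WT and 989.6 and 3249 in Smad2KO, with ratios of 1.65, 1.81 and 1.72. Socs2, in contrast to Cish, read 113 and 842 in Smad3KO, 121 and 3298 in WT and 152 and 3074 in Smad2KO, so its signal with TGF-b in Smad3KO was far under the others. Socs1 was under 2-fold in Smad3KO (0.79) and at 2.15 and 1.44 in WT and Smad2KO. The ERK phosphatase genes Dusp4 and Dusp6 had ratios of 1.64 and -1.24 in Smad3KO, 1.58 and -1.40 in WT and 1.80 and -1.10 in Smad2KO.

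Chemokine and homing receptors split into those that kept a large ratio and those that did not. Of 11 tested, 2 were higher in Smad3KO (Ccr6 and Ccr8) and 0 lower. The median was 0.22 in Smad3KO, against 1.42 in WT and 0.69 in Smad2KO. Cxcr4 read 31.9 and 29.3 in Smad3KO, 26.2 and 122 in WT and 18.3 and 55.9 in Smad2KO, so both Smad3KO signals were under the floor and give no ratio. Cxcr3, a receptor of Th1 cells, read 49.8 and 57.8 in Smad3KO, 51.3 and 153 in WT and 61.2 and 98.8 in Smad2KO, and Cxcr5, a receptor of follicular helper cells, 35.3 and 32.7 in Smad3KO, 45.2 and 102 in WT and 48.3 and 69.9 in Smad2KO. Both stayed under 64.6 on both Smad3KO arrays. S1pr1, which guides exit from lymph nodes, had ratios of 0.80, 1.61 and 1.06, and its regulator Klf2 of 1.44, 2.40 and 1.71.

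Cytoskeleton, S100 and annexin genes had 7 of 15 tested members higher in Smad3KO and 0 lower. The median was 0.78 in Smad3KO, beside 1.33 in WT and 1.01 in Smad2KO. Lgals1, which encodes galectin-1, read 949.7 and 2063 in Smad3KO, 1173 and 5404 in WT and 828 and 1721 in Smad2KO, and Ahnak, a large scaffold protein, 55.1 and 173 in Smad3KO, 108 and 255 in WT and 79.2 and 183 in Smad2KO. Ahnak had its largest ratio in Smad3KO (1.65) and Lgals1 in WT (2.20). In the TNF family 4 of 19 were higher (Lta, Tnfsf10, Tnfrsf1b and Tnfrsf25) and 1 lower (Tnfsf8), beside 1.9% and 0.839% of all bright genes. Tnfsf11, which encodes RANKL, had a ratio of -0.26 in Smad3KO, against -1.84 and -1.03. Lta, the lymphotoxin alpha gene, read 1811 and 5198 in Smad3KO, 1497 and 6769 in WT and 1420.1 and 5142 in Smad2KO.

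Lists of growth and division genes held no called member. None of 28 G1/S and DNA replication genes, 19 mitosis genes, 23 ribosome biogenesis genes or 20 respiratory chain genes was called in Smad3KO. With 1.9% of all bright genes called higher and 0.839% lower, a count of 0 in lists of this size is near the background. For mitosis genes the median ratio was -0.08 in Smad3KO (0.05 with signals as deposited, where all genes lie at 0.12), -0.30 in WT and -0.45 in Smad2KO, and 8 of 19 were above 0 in Smad3KO, 1 in WT and 0 in Smad2KO. Aurkb, a mitotic kinase, read 852 and 743 in Smad3KO, 786 and 441 in WT and 730.2 and 400.4 in Smad2KO. Over all 33 lists, 7 had a Smad3KO median above 0.5 (4 with quantile normalization) and 7 had no member called there. The lists were chosen with earlier results of these arrays known, so their counts are a description.

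**Figure D3:**
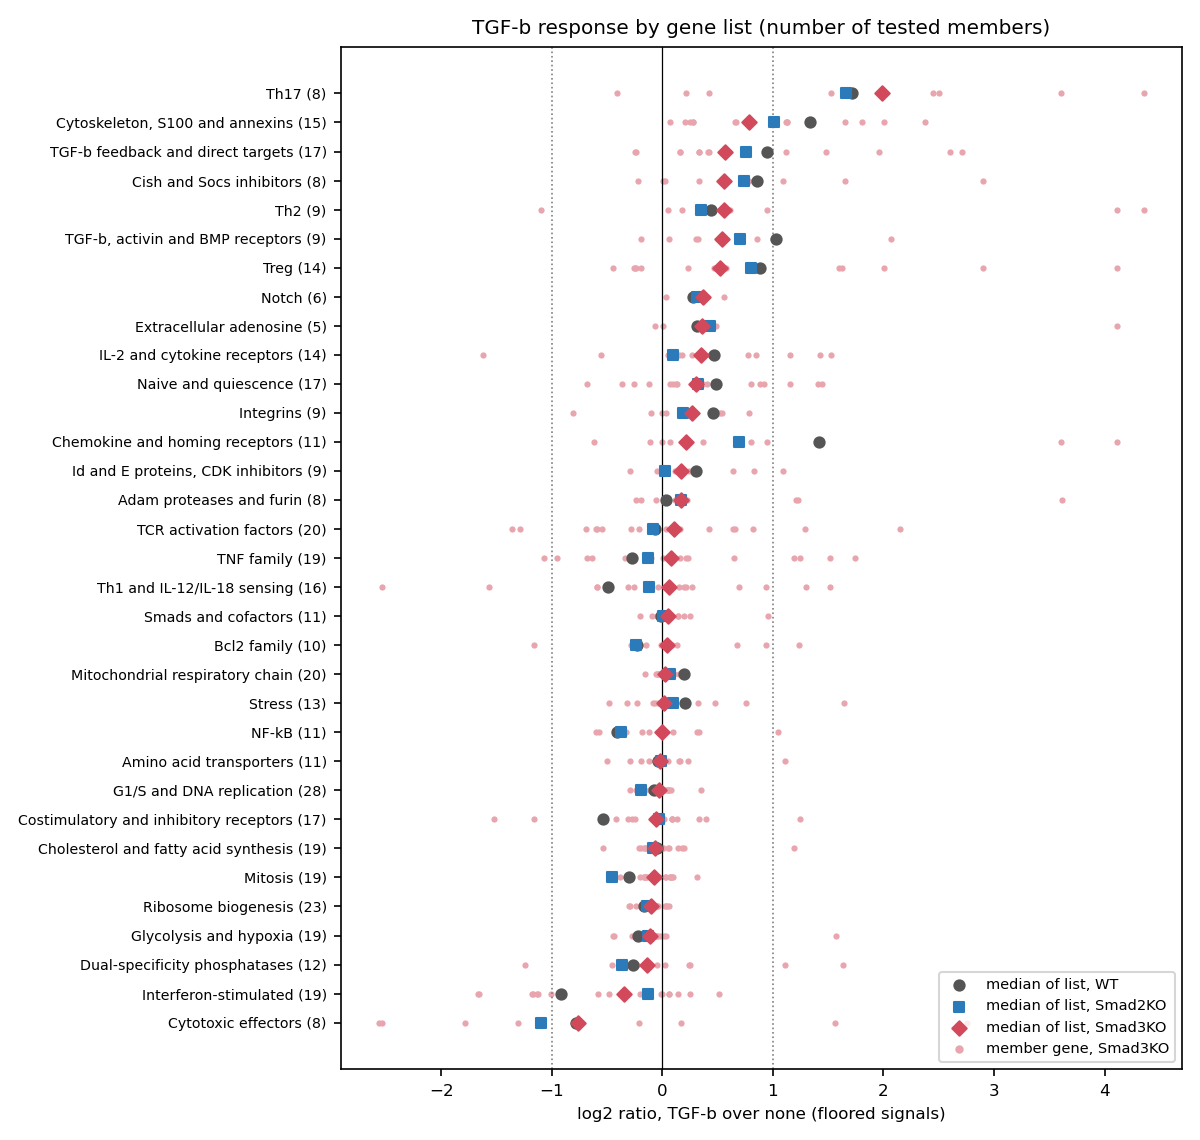
Log2 ratios of TGF-b over none for 33 gene lists, ordered by the Smad3KO median, with the number of tested members in brackets; pale points are single members in Smad3KO, and larger symbols the list medians in WT (grey circle), Smad2KO (blue square) and Smad3KO (red diamond). Th17 stands at the top with a Smad3KO median of 1.99, cytotoxic effectors at the bottom with -0.76, and chemokine receptors have the widest gap between Smad3KO (0.22) and WT (1.42).

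To see how much of the common response remained, genes were taken that were 2-fold the same way in both WT and Smad2KO, a choice that used the Smad3KO arrays only for the shared scaling, floor and probe set. Of 214 such rises, 93 (43.5%) were also at least 2-fold higher in Smad3KO, against 1.9% of all bright genes, and 205 had a ratio above 0. Of 85 such falls, 41 (48.2%) were at least 2-fold lower in Smad3KO, against 0.839%, and 78 had a ratio below 0. These 93 and 41 genes were 54.7% of the 170 and 54.7% of the 75 changed in Smad3KO. None of the 299 genes was 2-fold the opposite way. In Smad3KO the median ratio was 0.91 for the rises and -0.97 for the falls, against 1.74 and -1.64 in WT and 1.43 and -1.30 in Smad2KO. Choosing genes by their size in WT and Smad2KO raises their ratios in those pairs, and this choice does not act on Smad3KO. A median of the ratios in Smad3KO as a percentage of the WT and Smad2KO mean was 56.2% for the rises and 64.2% for the falls. In 60 rises and 25 falls it was at least 75%.

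Genes were then picked in a single pair and read in the other 2. Of 266 genes at least 2-fold higher in Smad2KO, 80.5% were so in WT and 37.6% in Smad3KO, with medians of 1.55 and 0.81. Of 159 genes at least 2-fold lower in Smad2KO, 53.5% were so in WT and 28.9% in Smad3KO, with medians of -1.10 and -0.56. Of 417 genes at least 2-fold higher in WT, 51.3% were so in Smad2KO and 27.3% in Smad3KO, with medians of 1.01 and 0.67. For 266 genes lower in WT these were 32.0% and 18.4%, with medians of -0.74 and -0.46. Ratios were spread most widely in WT and least in Smad3KO, and the part of this in the shares was not tested. Genes picked in Smad3KO had medians of 1.49 in WT and 1.16 in Smad2KO for the rises, and of -1.36 and -1.11 for the falls. Across 8691 genes the ratios of Smad3KO correlated with those of WT at Pearson 0.663 and with those of Smad2KO at 0.659, and those of WT and Smad2KO with each other at 0.780. These are over genes of the same arrays, which are not independent replicates.

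**Figure D4:**
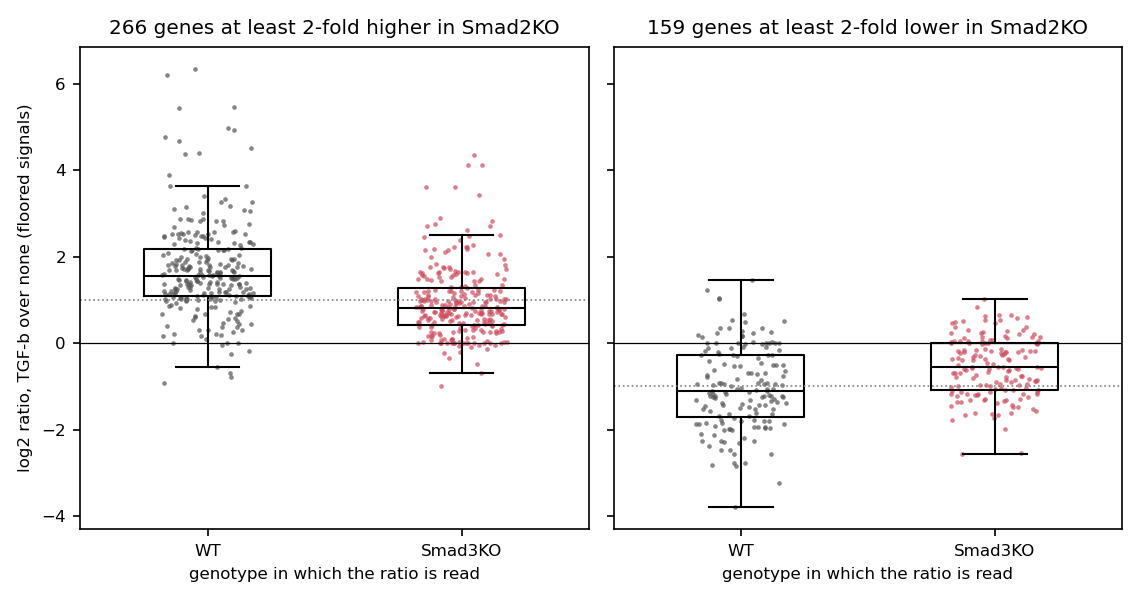
Log2 ratios of TGF-b over none in WT and Smad3KO for the 266 genes at least 2-fold higher (left) and the 159 at least 2-fold lower (right) in Smad2KO; points are genes, boxes the quartiles with the median, whiskers reach to 1.5 times the quartile range, and dotted lines mark 2-fold. The medians are 1.55 in WT and 0.81 in Smad3KO on the left, and -1.10 and -0.56 on the right. The robust SD of ratios over genes bright on both arrays was 0.329 in WT and 0.197 in Smad3KO.

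Some responses shared by WT and Smad2KO had small ratios of floored signals in Smad3KO, and these are called flat here. There were 49 rises and 19 falls whose floored Smad3KO ratio was under 0.5 in that direction. Where a Smad3KO signal was under the floor, the size of that ratio is a lower limit, and a larger change would not show. Gsta4, for example, read 3.04 and 36.4 in Smad3KO, and Ldlrad4 1.46 and 43.1. Such genes count as flat by the floor and cannot be said to lack a change. For the 19 falls the Smad3KO signal was below both others without TGF-b for 16, and above both with it for 18. For the 49 rises it was below both without TGF-b for 13 and above both for 22, and below both with it for 48. Genes of both sets were chosen for ratios larger in WT and Smad2KO than in Smad3KO. That choice itself favours such an order of signals, so these counts are no separate result. Among the 15 largest such rises was Pdlim5, a PDZ and LIM domain scaffold of the actin cytoskeleton, which read 357 and 306 in Smad3KO, 392 and 2249 in WT and 359 and 1356 in Smad2KO. It had 7 probe sets, of which 5 were at least 2-fold higher in each of WT and Smad2KO but 0 in Smad3KO, where the ratios ran from -0.31 to 0.39. H2-DMa, which loads peptides onto MHC class II, read 120.2 and 105 in Smad3KO, 56.4 and 406 in WT and 78.2 and 371 in Smad2KO, so the Smad3KO signal was above the others without TGF-b and below them with it. Nrarp, a feedback inhibitor of Notch, read 55.2 and 56.6 in Smad3KO, 61.5 and 309 in WT and 84.2 and 239 in Smad2KO, and both of its probe sets were at least 2-fold higher in WT and Smad2KO and not bright in Smad3KO. Gja1, the gap junction gene connexin 43, read 10.4 and 33.3 in Smad3KO, 14.6 and 188 in WT and 7.97 and 112 in Smad2KO, and was near the floor in Smad3KO. Tec, a kinase of T cell receptor signalling, read 79.9 and 99.9 in Smad3KO, 72.5 and 203 in WT and 36.7 and 108 in Smad2KO. For Fbxo2, Sardh and Dst both Smad3KO signals were under the floor, so no ratio is given.

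Among the falls that were flat in Smad3KO, Dapl1 read 1274 and 1161 in Smad3KO, 997 and 347 in WT and 1520.4 and 657 in Smad2KO and has 1 probe set. Ebi3, a subunit of the cytokines IL-27 and IL-35, read 82.5 and 69.0 in Smad3KO, 111 and 23.9 in WT and 95.5 and 35.9 in Smad2KO. Pou2f2, the transcription factor Oct-2, read 419 and 358 in Smad3KO, 471 and 225 in WT and 664 and 233 in Smad2KO. Myh10, a non-muscle myosin heavy chain, read 183 and 134 in Smad3KO, 163 and 56.3 in WT and 144 and 55.5 in Smad2KO, a ratio of -0.46 in Smad3KO, -1.53 in WT and -1.37 in Smad2KO. Ces5a, a carboxylesterase, read 59.0 and 105 in Smad3KO, 222 and 14.5 in WT and 246 and 45.9 in Smad2KO, the opposite direction, under 2-fold in Smad3KO.

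Whether the Smad3KO response differed from the other 2 was tested across 9449 genes with limma, as the log2 response in Smad3KO minus the mean response of WT and Smad2KO. The spread in this test is that between the WT and Smad2KO responses, with 1 residual degree of freedom before moderation, so these pairs stand in for replicates of each other. At an adjusted p of 0.05, 24 genes (0.254%) had a lower and 15 (0.159%) a higher response in Smad3KO, and 797 had an unadjusted p under 0.05. All 24 with a lower response had rises in both WT and Smad2KO, and 10 of them were still at least 2-fold higher in Smad3KO. The Smad3KO signal without TGF-b was below both others for 6 of the 24 and above both for 12. With TGF-b it was below both for 22, an order that choosing genes by a lower response itself favours. The calls depended on the settings, and no gene passed with no filter on brightness, with the mean of all probe sets, with all 8 arrays, or without the trend and robust options. Unadjusted p-values under 0.05 under these settings numbered 408 higher and 315 lower, 316 and 244, 66 and 35, and 364 and 262.

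Emp1, a small membrane protein, had the largest lower response among these, a difference of -3.88 (SE 0.408, limma adjusted p = 5.65e-05). It read 2.38 and 55.5 in Smad3KO, 3.24 and 1013 in WT and 41.9 and 855 in Smad2KO, so in Smad3KO it stayed under 64.6 with TGF-b, and the signals without TGF-b in WT and Smad3KO were under the floor. Differences of Emp1, Ctla2a, Ctla2b, Maf, Ccr8, Anxa3 and Ces5a rest on signals set to the floor, so they are no bound on the true difference. Pdlim5 differed by -2.44 (SE 0.238, limma adjusted p = 0.000504) and H2-DMa by -2.74 (SE 0.361, limma adjusted p = 0.000504). Ctla2a, an inhibitor of cysteine proteases, read 22.1 and 179 in Smad3KO, 38.7 and 1169 in WT and 26.3 and 1119 in Smad2KO, a difference of -2.54 (SE 0.341, limma adjusted p = 0.000504), and its neighbour in sequence Ctla2b showed the same pattern. Ctla2a and Ctla2b are near-identical copies, so their probe sets may share signal. Socs2 differed by -1.65 (SE 0.22, limma adjusted p = 0.000504), Maf by -1.79 (SE 0.292, limma adjusted p = 0.00397) and Tgfbr1 by -1.07 (SE 0.171, limma adjusted p = 0.00367). These 3 were higher in Smad3KO with TGF-b as well, by a smaller ratio. Akr1c18, an enzyme of steroid metabolism, read 364 and 741 in Smad3KO, 267 and 2354 in WT and 209.9 and 1275 in Smad2KO, a difference of -1.85 (SE 0.224, limma adjusted p = 0.000504). Rnf149, a ubiquitin ligase, read 751 and 1474 in Smad3KO, 748 and 3084 in WT and 724 and 2716 in Smad2KO. Among the rest of the 24 were Ccr8, Irf8, Ctla4, Smad3, the zinc transporter Slc39a8 and the annexin Anxa3.

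The 15 genes with a higher response in Smad3KO were fewer than the 24 with a lower one, but with signals as deposited the numbers were 707 and 20. Of the 15, 14 had falls in both WT and Smad2KO. Without TGF-b the Smad3KO signal was already below both others for 13 of the 15, and with TGF-b it was above both for 14. Choosing genes by a higher response itself favours both of these orders. A low Smad3KO signal without TGF-b and a missing fall with it both enter these differences. Jund, an AP-1 subunit, read 2945 and 3245 in Smad3KO, 3965 and 2447 in WT and 4637 and 2232 in Smad2KO, a difference of 1.02 (SE 0.163, limma adjusted p = 0.00548). Dapl1 differed by 1.23 (SE 0.185, limma adjusted p = 0.00196) and Ces5a by 3.43 (SE 0.461, limma adjusted p = 0.000504). Arid1a, a subunit of the SWI/SNF remodelling complex, read 1305 and 1621 in Smad3KO, 1886 and 1230.4 in WT and 2137 and 1493 in Smad2KO, and its other probe set had a ratio of -0.18 in Smad3KO against 0.31 for the one used. Fkbp8, a chaperone of the outer mitochondrial membrane, read 575 and 1069 in Smad3KO, 1109.7 and 1191 in WT and 1268 and 1086 in Smad2KO, so that the low value was the Smad3KO array without TGF-b. The other 5 of the 10 with the smallest p were Farp1, Mrpl33, Cherp, Gm6958 and Prrc2a, with differences from 0.77 to 1.91.

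**Figure D5:**
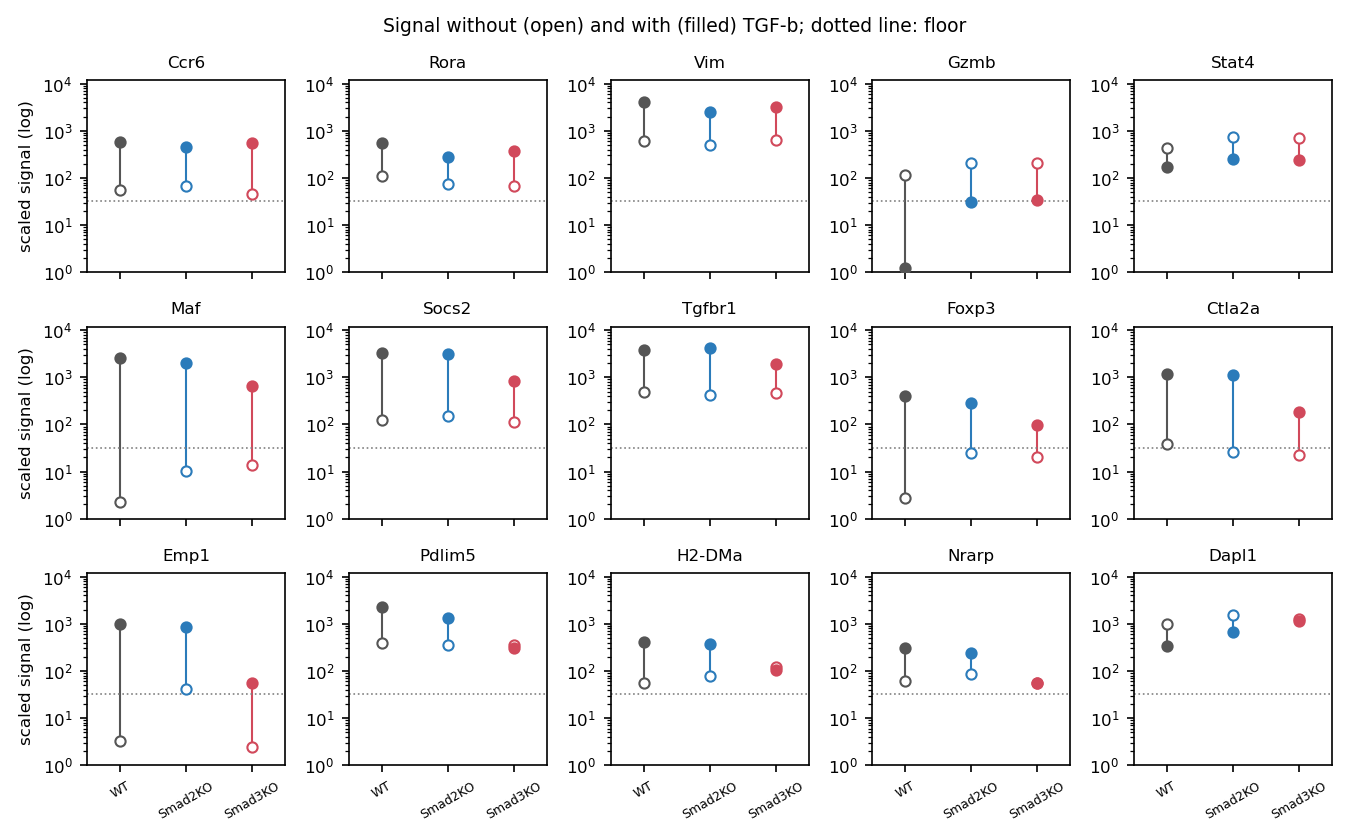
Scaled signal (logarithmic axis, not floored) of 15 genes in WT, Smad2KO and Smad3KO, without TGF-b (open circles) and with it (filled circles), with the floor of 32.3 as a dotted line; each point is 1 array. The top line holds genes with like changes in all 3 pairs, the middle line genes that were higher with TGF-b in Smad3KO by less, and the bottom line genes whose Smad3KO points lie close together or, for Emp1, both under 64.6.

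The windows before Emp1 and Pdlim5 are shown because these had the smallest p in the test of the difference. They are written as before, from RefSeq (GRCm38.p6), with CAGAC and GTCTG in capitals. Emp1 (chr6:135362681-135362930, plus strand) held 3 such matches and 2 of TGANTCA. Pdlim5 (chr3:142395697-142395946, minus strand) held 0 of either. Both genes have 2 windows in the table, of which the first is shown.
Emp1: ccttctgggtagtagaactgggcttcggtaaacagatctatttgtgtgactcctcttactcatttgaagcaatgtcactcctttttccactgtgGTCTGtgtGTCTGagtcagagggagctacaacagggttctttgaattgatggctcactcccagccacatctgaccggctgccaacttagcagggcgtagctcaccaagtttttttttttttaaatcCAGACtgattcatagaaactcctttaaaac
Pdlim5: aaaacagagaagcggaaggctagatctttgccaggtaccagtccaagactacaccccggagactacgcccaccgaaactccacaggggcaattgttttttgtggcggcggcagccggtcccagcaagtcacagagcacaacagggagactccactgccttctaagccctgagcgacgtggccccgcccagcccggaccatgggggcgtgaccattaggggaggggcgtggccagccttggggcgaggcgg
Over the 64 windows of the 49 rises that were flat in Smad3KO, 56.2% held CAGAC in either orientation, against 47.2% of 89 windows of genes higher in all 3 genotypes and 40.0% of all windows. For TGANTCA the shares were 9.38%, 5.62% and 3.93%. Windows of 1 gene overlap in part, and no test was made of these shares.

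The largest changes seen in Smad3KO and not in the others, by ratios of floored signals, were dim. Of the 170 rises 49 (28.8%) were 2-fold in neither WT nor Smad2KO. In both of these, 20 (11.8%) had ratios under 0.32 on the log2 scale in that direction. For the 75 falls these numbers were 21 (28.0%) and 6 (8.0%). The like shares, each against the other 2 pairs, were 43.6% and 10.3% of rises in WT and 16.9% and 4.89% in Smad2KO. For falls they were 65.0% and 22.2% in WT and 43.4% and 18.9% in Smad2KO. Of the 20 rises in Smad3KO, the 15 largest all had signals of 122 or less there. Mpzl2, an adhesion protein, read 18.9 and 104 in Smad3KO, 2.15 and 35.2 in WT and 7.80 and 24.9 in Smad2KO, and Podn 38.4 and 117 in Smad3KO, 60.4 and 49.8 in WT and 106 and 64.8 in Smad2KO. A further, dimmer Mpzl2 probe set read 29.8 and 58.9 in Smad3KO, 10.6 and 57.7 in WT and 8.38 and 17.2 in Smad2KO. Zbtb10, a zinc finger repressor, read 38.6 and 96.6 in Smad3KO, 46.2 and 47.8 in WT and 97.7 and 93.3 in Smad2KO. A dim Zbtb10 probe set had ratios of 0.72 in Smad3KO, 0.68 in WT and 0.75 in Smad2KO. Another had -0.15 in Smad3KO and 0.28 in Smad2KO. The floor and the probe set thus enter the choice of both genes. Of the 20 rises, 1 had another bright probe set, which was not 2-fold higher, and of the 6 falls 0 had one. The 6 falls were 2610316D01Rik, Mfsd4b4, Zfp691, Cpne5, Rhobtb3 and Gdpd5, and Gdpd5 was the brightest, at 188 and 88.4 in Smad3KO. Of these 15 rises and 6 falls, 0 passed the limma test at an adjusted p of 0.05, in which Rhobtb3 could not be fitted, and 12 had an unadjusted p under 0.05.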

How the data were processed

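RNA of 8 cultures (4 genotypes, with TGF-b or without it) was measured on single-colour Affymetrix arrays, from 6 ug of total RNA each. The authors deposited linear intensities of probe sets. GCOS 1.4 stands in the submitters' processing notes, while the algorithm, the background correction and the scaling target were not given in the sources used here. WT, Smad2KO and Smad3KO (6 arrays) were used, and rank correlations across probe sets were 0.907 to 0.928 among them and 0.660 to 0.693 with the Smad2KO_Smad3het arrays.

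Arrays were brought to an equal 2% trimmed mean, floored at 32.3 and put on the log2 scale, and ratios were taken within a genotype. The platform annotation gave 1 gene symbol to 34945 of 45101 probe sets and several to 932, which were left out, as were 64 controls and 9160 unnamed here. Each of 9453 genes with a signal of at least 64.6 on any array was represented by its brightest probe set on average. The difference of responses was tested in limma 3.58.1 (R 4.3.3) with genotype as a block, trend and robust variances, and Benjamini-Hochberg adjustment at 0.05, and the script was tested on simulated data. The p-values rest on the spread between the WT and Smad2KO responses, which holds any effect of Smad2 as well as differences among cultures. The labels do not say that cultures came from separate animals, so those differences may be technical. Of the total degrees of freedom (median 20.4) 1 was residual, and the rest came from moderation across genes. Promoter windows of 250 bases came from RefSeq and figures from matplotlib 3.10.9.

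Named were the 25 largest rises and falls in Smad3KO, the 10 smallest limma p-values in each direction, the 15 largest per direction that were flat in Smad3KO or seen in Smad3KO alone, members of 33 pathway lists, and Smad2, Smad3, Smad7, Foxp3, Il2, Ifng and Tbx21. Anxa3 and Slc39a8 were chosen after their values were seen. The members and lists were chosen with earlier results of these data known. Alternatives changed the scaling, floor, filter, probe set rule, arrays used and variance model.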

Additional observations from a re-analysis of the deposited data

Results flagged for a closer look

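The TGF-b response of 20 named genes differed between Smad3KO and the mean of WT and Smad2KO by limma at an adjusted p of 0.05. On the log2 scale the response was lower in Smad3KO for Emp1 (-3.88), Pdlim5 (-2.44), H2-DMa (-2.74), Ctla2a (-2.54), Socs2 (-1.65), Akr1c18 (-1.85), Ctla2b (-2.72), Tgfbr1 (-1.07), Rnf149 (-1.002) and Maf (-1.79). It was higher for Ces5a (3.43), Dapl1 (1.23), Jund (1.02), Arid1a (0.88), Farp1 (1.91), Fkbp8 (0.95), Mrpl33 (0.78), Cherp (0.83), Gm6958 (0.97) and Prrc2a (0.77). The adjusted p-values ran from 5.65e-05 for Emp1 to 0.0309 for Prrc2a, and each call held in 6 to 8 of the settings tried (12, or 11 for Ces5a). The direction of each difference held in all of those settings. With signals as deposited 707 genes had a higher and 20 a lower response. Ces5a has a signal under the floor in WT and rests on 1 probe set of a type that can bind several transcripts. Another bright Cherp probe set had ratios of 0.02 in Smad3KO, -0.22 in WT and 0.08 in Smad2KO. For Gm6958 another had -0.42, -1.03 and -0.47, so the differences from Smad2KO were small on these probe sets.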

How the results depend on the processing

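The limma test pairs the arrays of a genotype as its block. No paired analysis was possible by replicate number, because each group had 1 array and the labels give no numbers. For the same reason no replicate could be left out. Counts of genes at least 2-fold higher and lower in Smad3KO were 170 and 75. They were 1163 and 1087 with a floor at the 25th percentile of signals, 108 and 44 with a floor at 2 times the median, and 107 and 38 when the floor was added to signals. With the mean of all probe sets they were 106 and 59. All 245 genes kept their direction under the 3 other scalings. Their log2 ratios were at least 1 in size, and the median of all genes lay between -0.03 and 0.12 under those scalings. A change of sign was therefore hardly possible, and this is no check of the calls. Genes with a higher and a lower response in Smad3KO by limma numbered 15 and 24. These were 53 and 68 with quantile normalization, 36 and 71 with median centring, 51 and 57 with the lower floor, 0 and 7 with the higher floor, and 2 and 10 with a filter on mean signal. With signals as deposited they were 707 and 20, so the balance turned. Both were 0 with no filter, with the mean of probe sets, with all 8 arrays, and without the trend and robust options. Unadjusted p-values under 0.05 numbered 431 and 366 at the reported setting and 352 and 292 with the higher floor. For single genes, 80 of 483 recomputed Smad3KO ratios moved and 403 did not, and 103 of 219 recomputed differences lost their call, with 0 reversed. Signals near background limit the dim genes, and with 1 array a group no value has a replicate error.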

Other observations

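Other genes of proteolysis, survival and metabolism also had values past 2-fold in Smad3KO. Furin, a protease that activates the TGF-b precursor, read 305 and 703 in Smad3KO, 347 and 992 in WT and 328 and 711 in Smad2KO, and Timp2, an inhibitor of metalloproteases, 589.8 and 1377 in Smad3KO, 415 and 2798 in WT and 619.8 and 2491 in Smad2KO. Bcl2l11, which encodes the death-promoting protein Bim, read 1198 and 535 in Smad3KO, 1038 and 258 in WT and 991 and 490.3 in Smad2KO. Bad, another such protein, read 109 and 258 in Smad3KO, 138 and 126 in WT and 125 and 173 in Smad2KO, a ratio of 1.24 in Smad3KO against -0.13 and 0.47 in WT and Smad2KO. Egln3, an oxygen-dependent prolyl hydroxylase, read 185 and 552 in Smad3KO, 123 and 1186 in WT and 97.1 and 578 in Smad2KO. Scd2, a fatty acid desaturase, read 1760.4 and 4018 in Smad3KO, 1438 and 2189 in WT and 825 and 1686 in Smad2KO. The differentiation inhibitors Id1 and Id3 had ratios of 1.09 and -0.29 in Smad3KO, 2.18 and -1.50 in WT, and 2.00 and -0.65 in Smad2KO. By limma 0 of these 8 genes differed in response between Smad3KO and the others at an adjusted p of 0.05, and 4 had an unadjusted p under 0.05.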
